A study of Mus musculus with 4 samples.

Results

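The genes described here encode the nuclear subunits of the mitochondrial respiratory chain (complexes I to IV) and of ATP synthase. They were chosen by annotated symbol alone, as genes beginning Ndufa, Ndufb, Ndufc, Ndufs or Ndufv (assembly factors named Ndufaf left out), Sdha to Sdhd, Uqcr, Cyc1, Cox4 to Cox8 and Atp5, with pseudogenes left out. The rule gave 80 of the 17097 named genes on the array, made up of 34 genes of complex I, 4 of complex II, 8 of complex III, 17 of complex IV and 17 of ATP synthase. Genes whose symbols fit the rule but that had no probe set with a single gene symbol were not analysed here, nor were the 13 subunits encoded by mitochondrial DNA.

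The samples were B16F10 cells, an established mouse melanoma cell line, and total RNA was measured on 4 Affymetrix expression arrays. There were 2 plumbagin samples, from cells given 2 µM plumbagin for 24 h, and 2 control samples, from cells given MilliQ water, the 0 µM arm. Plumbagin is a plant naphthoquinone that can take part in redox cycling. The labels do not say whether samples of a group came from separate cultures, so every p-value measures the spread between these 4 samples, which may be technical. Neither a change in cell number nor a change in total RNA per cell can be seen in these normalised values. The arrays are called plumbagin 1, plumbagin 2, control 1 and control 2.

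Complex I passes electrons from NADH to ubiquinone, complex II passes them from succinate to ubiquinone, and complexes III and IV carry them by way of cytochrome c to oxygen. Complexes I, III and IV pump protons out of the matrix, and ATP synthase lets them back to make ATP. Quinones such as ubiquinone are the mobile carriers between the first complexes and complex III. Several complex IV subunits come in paired forms, a widely expressed one and another used mainly in heart and skeletal muscle, testis or lung.

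The deposited values are log2 expression values (RMA), 1 per probe set, and each gene was represented by its brightest probe set, judged by the average of all 4 arrays. Array medians ran between 4.32 and 4.39. Upper quartiles were 6.26 (plumbagin 1) and 6.36 (plumbagin 2), against 6.35 (control 1) and 6.34 (control 2). The spiked-in bacterial and phage hybridisation controls averaged 9.58 on plumbagin 1 and 8.67 on plumbagin 2, against 8.46 on control 1 and 8.77 on control 2. A background level of 5.05 was taken as the 95th percentile of 41 odorant receptor genes, and 50.5% of all genes had a mean above it. All 7 melanocyte and melanoma markers were above background, while 0 of 6 fibroblast, 1 of 6 leukocyte (Cd3e), 1 of 4 endothelial (Kdr) and 0 of 2 keratinocyte markers were. The median level of the melanocyte markers was 11.57 and 11.32 on the plumbagin arrays, against 11.69 and 11.18 on the controls.

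Subunit genes of all 5 complexes were measured well: 74 of the 80 had a mean above background and 69 had a mean above 9. None of the 80 passed the test. With limma fitted over all 17097 genes and p adjusted by the Benjamini-Hochberg method (threshold 0.05), 0 members were called, and 0 genes were called in the whole table, a background of 0%. At an unadjusted p under 0.05 the count was 1 member, the dim Cox8b, against a background of 0.988% of all genes. The smallest adjusted p of any member was 1.

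The differences (plumbagin minus control, log2) were small in every complex. Their median over the 80 members was -0.03, with 33 higher and 47 lower, and the single values lay between -0.28 (Uqcrc1) and 0.29 (Cox8b). The median over all genes was -0.01, and over the 1279 other genes with a mean above 9 it was -0.03, the same as for the 69 members of that brightness. By complex, the median was -0.03 for complex I (12 higher, 22 lower), -0.07 for complex II (1 higher, 3 lower), -0.06 for complex III (3 higher, 5 lower), 0.0153 for complex IV (9 higher, 8 lower) and -0.01 for ATP synthase (8 higher, 9 lower). Some of these signs depended on the normalisation, those of complexes II and III not among them. Under cyclic loess the median was 0.016 for all members, 0.016 for complex I and 0.021 for ATP synthase. A repeated quantile normalisation gave 0.0053 for ATP synthase, and centring the arrays on their medians gave -0.0035 for complex IV. Taken by array number, the median over the members was -0.07 for plumbagin 1 minus control 1 (23 higher, 56 lower). For plumbagin 2 minus control 2 it was 0.02 (54 higher, 26 lower). The other genes with a mean above 9 had medians of -0.07 and 0.0056. The labels tie same-numbered samples by nothing but the number.

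The intervals show how precisely each difference was measured, given the spread between these arrays in that gene and, through limma's eBayes step, in all genes. That spread may be technical, so the intervals do not bound a change across separate cultures. Each was set for a single gene, not for the 80 members together. A shift shared by most genes would have been removed by RMA and lies outside them. The 95% confidence interval of the difference lay within 1 log2 unit either way (a 2-fold change) for all 80 members, and within 0.5 for 66 of them, or 82.5%. Of the other genes with a mean above 9, 96.7% had an interval within 1 and 69.7% within 0.5, against 100% and 84.1% of the members of that brightness. The median standard error of a member's difference was 0.104. The eBayes step draws each gene's variance towards a value shared by all genes, so errors and intervals do not rest on a gene's own spread alone. Cox6a2 had a standard error of 0.30, with SDs of 0.36 (plumbagin) and 0.48 (control). For Ndufb9 the standard error was 0.077, with SDs of 0.015 and 0.014. Intervals from each gene's own spread alone were not computed. The median size of the difference was 0.050, against a median gap of 0.120 between the 2 plumbagin arrays and 0.122 between the 2 controls. In 62 of the 80 genes the controls lay further apart from each other than the group means did. The same held for 11098 of all 17097 genes and for 954 of the 1279 other genes with a mean above 9. A gap between single arrays varies more than a difference between means of 2 arrays, so these counts do not weigh treatment against noise.

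**Figure D1:**
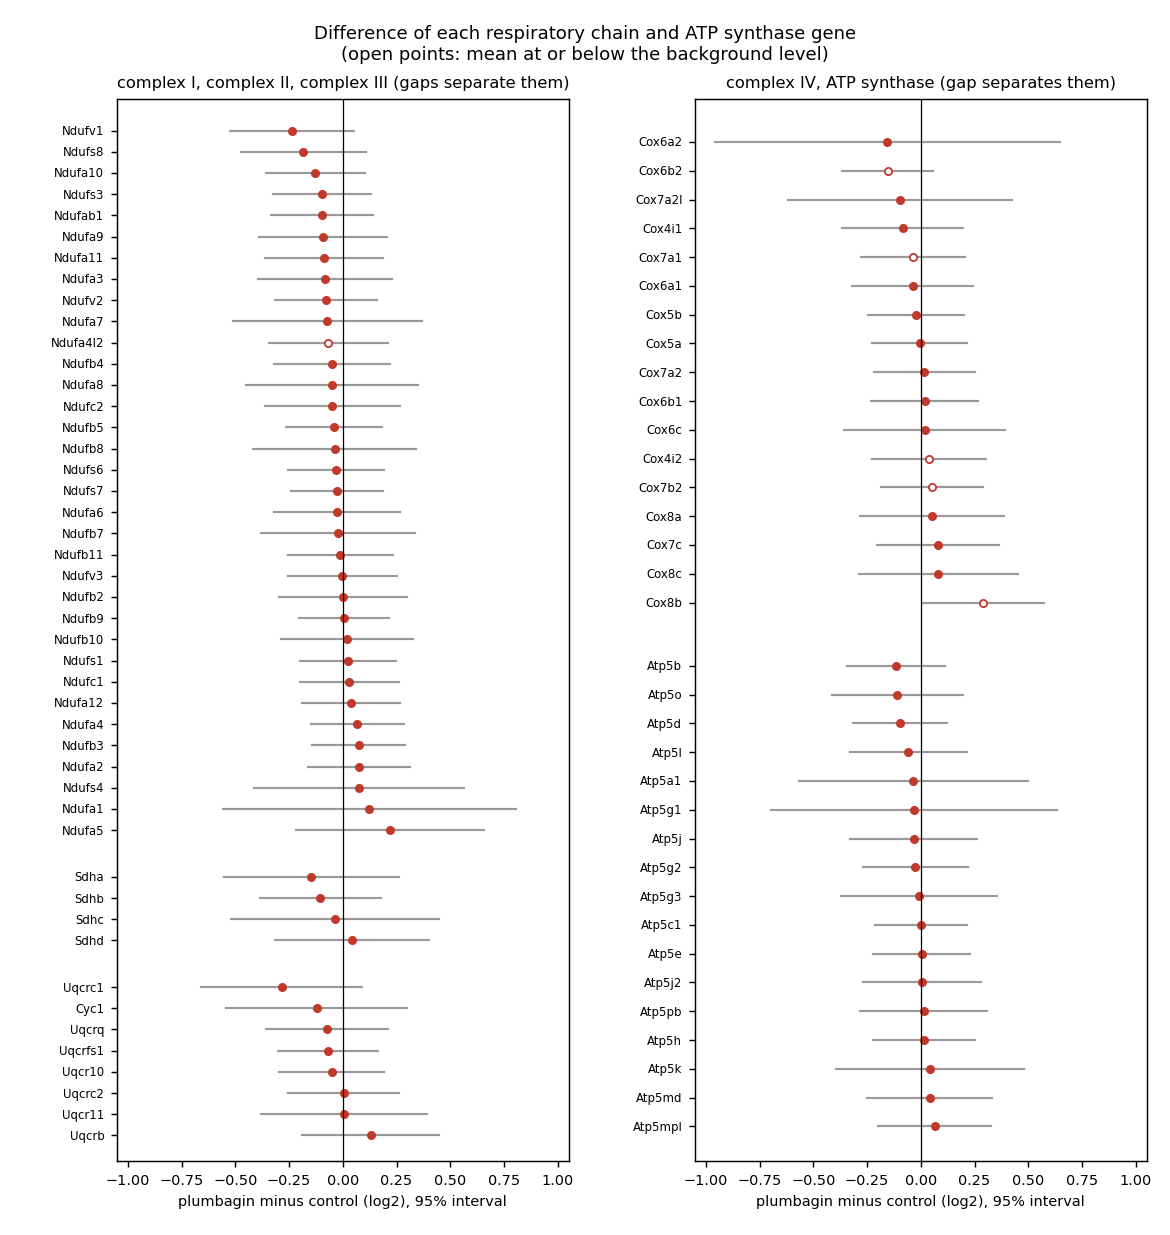
Difference of each of the 80 subunit genes, plumbagin minus control, on the log2 scale (x axis), grouped by complex (rows), with points for the limma estimate and bars for its 95% interval; open points mark genes whose mean was at or below the background level of 5.05. The points lie between -0.28 and 0.29, and no bar reaches 1 log2 unit in either direction.

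Counted by array rather than by mean, both plumbagin values lay below both controls in 9 of the 80 genes (11.2%), against a background of 15.2% of all genes. They lay above both controls in 3 (3.75%), against a background of 10.2%. Among genes with a mean above 9 the shares were 11.6% lower and 1.45% higher for members, against 13.9% and 6.25% for other genes. The 9 lower genes were Ndufv1, Ndufs8, Ndufs3, Ndufa10 and Ndufab1 of complex I, Uqcrc1 of complex III, the dim Cox6b2 of complex IV, and Atp5b and Atp5d of ATP synthase. The 3 higher genes were Ndufb3, Ndufa4 and the dim Cox8b. In the rest the groups overlapped.

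Complex I holds a catalytic core and a shell of accessory subunits. The 6 nuclear core subunits analysed here had a median difference of -0.09, with 1 higher and 5 lower. Of non-members with a mean above 9, 62.2% had lower means. By array number the core median was -0.16 for plumbagin 1 minus control 1 (0 higher, 6 lower). It was -0.03 for plumbagin 2 minus control 2 (2 higher, 4 lower). Ndufv1, which binds FMN and NADH at the entry site, had values of 9.27 and 9.48 on the plumbagin arrays, against 9.65 and 9.57 on the controls. Both plumbagin values were below both controls, with a difference of -0.24 ± 0.11 (SE), a 95% interval of -0.52 to 0.05 and a limma adjusted p of 1. Ndufs8, an iron-sulphur protein on the path to ubiquinone, had 9.95 and 10.10 with plumbagin, against 10.29 and 10.12 in controls, a difference of -0.18 ± 0.11. Its groups did not overlap, but plumbagin 2 and control 2 nearly met, and its 3 other probe sets differed by -0.23, -0.18 and -0.12.

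Ndufs3, a core subunit of the arm that reaches into the matrix, read 9.24 and 9.26 with plumbagin, against 9.40 and 9.30 in controls, again without overlap. Ndufv2, which carries an iron-sulphur cluster beside the FMN site, read 10.45 and 10.51 with plumbagin, against 10.62 and 10.50 in controls, where plumbagin 2 lay between the controls. Ndufs1, the subunit with the most iron-sulphur clusters, was the core member with a higher mean, at 9.10 and 9.18 with plumbagin and 9.13 and 9.09 in controls. Ndufs7, which holds the last cluster before ubiquinone, was nearly level on its brightest probe set, at 9.11 and 9.13 with plumbagin and 9.12 and 9.18 in controls. Its other probe set read 8.67 and 8.85 with plumbagin, against 8.98 and 8.86 in controls, a difference of -0.16 without overlap. The 28 accessory members had a median difference of -0.02.

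Among the accessory subunits the 14 Ndufa genes had a median of -0.06 and the 9 Ndufb genes a median of -0.01. Ndufa10 read 10.29 and 10.23 with plumbagin, against 10.44 and 10.34 in controls, a difference of -0.13 ± 0.09 without overlap. Ndufab1, the mitochondrial acyl carrier protein, read 10.34 and 10.41 with plumbagin, against 10.53 and 10.42 in controls, so that plumbagin 2 and control 2 were nearly equal. Another Ndufab1 probe set above background differed by 0.15, in the opposite direction. Ndufa5 had the highest mean difference of the complex, 0.22 ± 0.16, and on its brightest probe set it came from plumbagin 1. The values there were 10.004 and 9.59 with plumbagin, against 9.60 and 9.55 in controls. Without plumbagin 1 that difference was 0.012. The other Ndufa5 probe set read 8.73 and 8.68 with plumbagin, against 8.67 and 8.57 in controls. It differed by 0.09 without overlap, though plumbagin 2 and control 1 nearly met.

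The accessory genes with higher values on both plumbagin arrays had small differences. Ndufb3 read 8.71 and 8.66 with plumbagin, against 8.60 and 8.63 in controls. Ndufa4, named for complex I but since assigned to complex IV, read 11.10 and 11.16 with plumbagin, against 11.08 and 11.04 in controls. Ndufa1, encoded on the X chromosome and needed for assembly of the membrane arm, was the least steady member of the complex, at 10.32 and 10.76 with plumbagin and 10.14 and 10.69 in controls. Within each group its 2 arrays lay further apart than the group means. Ndufb9 was the steadiest of all 80 genes, spanning 0.0258 over the 4 arrays (10.71 and 10.73 with plumbagin, 10.70 and 10.72 in controls).

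Complex II, succinate dehydrogenase, is also an enzyme of the tricarboxylic acid cycle and is encoded wholly in the nucleus. Its catalytic subunits had lower means with plumbagin, and its groups overlapped in all 4 genes. Sdha, the flavoprotein that oxidises succinate, read 9.66 and 9.94 with plumbagin, against 10.07 and 9.81 in controls, a difference of -0.15 ± 0.15. Sdhb, the iron-sulphur subunit, read 10.54 and 10.74 with plumbagin, against 10.78 and 10.71 in controls, a difference of -0.11 ± 0.10. Without plumbagin 1 the difference was -0.0073 for Sdha and -0.0052 for Sdhb, and for Sdha it was -0.016 without control 1 and -0.0092 with its probe sets averaged. That average takes in Sdha probe sets below background (means 5.01 and 2.93), which differed by 0.23 and -0.06. The other Sdha probe set above background differed by -0.05. In both genes plumbagin 1 was the lowest array and plumbagin 2 lay between the controls.

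The membrane anchors of complex II bind ubiquinone. Sdhc read 9.51 and 9.23 with plumbagin, against 9.60 and 9.21 in controls, a difference of -0.04 ± 0.18. Sdhd read 8.82 and 8.56 with plumbagin, against 8.74 and 8.56 in controls, a difference of 0.04 ± 0.13. In both anchors the arrays of a group lay further apart than the group means. The Sdhc difference was 0.16 without control 1 and 0.10 without plumbagin 2, and the Sdhd difference was -0.09 without plumbagin 1 and -0.05 without control 2. Without control 1 the median of the complex was 0.06.

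Complex III had the lowest difference of the whole set, in Uqcrc1, a core protein on the matrix side. Uqcrc1 read 9.67 and 9.68 with plumbagin, against 10.13 and 9.79 in controls, a difference of -0.28 ± 0.14 with a 95% interval of -0.66 to 0.09 and a limma adjusted p of 1. The plumbagin arrays were nearly equal and both lay below the controls, which lay 0.34 apart. The difference was -0.11 without control 1 and -0.46 without control 2. Its partner Uqcrc2 read 9.80 on both plumbagin arrays, against 9.88 and 9.71 in controls, so the plumbagin values lay between the controls.

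The redox subunits of complex III stayed close to their controls. Uqcrfs1, the Rieske iron-sulphur protein, read 9.78 and 9.84 with plumbagin, against 9.93 and 9.83 in controls, a difference of -0.07 ± 0.09. Cyc1, cytochrome c1, read 10.61 and 10.44 with plumbagin, against 10.83 and 10.47 in controls, a difference of -0.12 ± 0.16 that became 0.06 without control 1. Uqcrb, a ubiquinone-binding subunit, had a higher mean, at 9.42 and 9.60 with plumbagin and 9.29 and 9.48 in controls (0.13 ± 0.12). The groups overlapped in all 3 genes.

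Complex IV, cytochrome c oxidase, had nearly as many genes with higher as with lower means (9 against 8), and its median was -0.0086 without plumbagin 2 and -0.032 without control 2. Its widely expressed subunits were bright and nearly level. Cox4i1, the regulatory subunit, read 11.26 and 11.46 with plumbagin, against 11.42 and 11.46 in controls, a difference of -0.08 ± 0.10 that rested on plumbagin 1 and was 0.02 without it. Cox5a read 11.45 and 11.37 with plumbagin, against 11.44 and 11.39 in controls, and Cox5b read 11.77 and 11.74, against 11.82 and 11.73. Cox7c read 9.58 and 9.75 with plumbagin, against 9.53 and 9.65 in controls, a difference of 0.08 ± 0.11 that was -0.0097 without plumbagin 2.

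Most paired forms of complex IV subunits split by background in both groups. The widely expressed form was above the background level of 5.05 on every array in each pair: Cox4i1, Cox6a1, Cox6b1, Cox7a2 and Cox8a. The forms known mainly from lung (Cox4i2), heart and muscle (Cox7a1, Cox8b) and testis (Cox6b2, Cox7b2) had means below it. Cox4i2 was close to the level, with a mean of 5.03, and lay above it on plumbagin 1 and control 1. Cox6a2, a heart and muscle form, straddled it, at 4.88 and 5.39 with plumbagin and 4.95 and 5.63 in controls, and Cox8c, a testis form, lay above it on every array, at 6.69 and 6.36 with plumbagin and 6.41 and 6.47 in controls. Cox6a2 spanned 0.75 over the 4 arrays, the widest of the 80 genes. Ndufa4l2, the hypoxia-responsive relative of Ndufa4, was below background on every array (4.49 and 4.39 with plumbagin, 4.60 and 4.42 in controls).

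The largest positive difference in the set belonged to a gene below background. Cox8b read 4.46 and 4.24 with plumbagin, against 4.06 on both controls, a difference of 0.29 ± 0.11 with an unadjusted limma p of 0.0481 and an adjusted p of 1. Cox6b2 read 3.06 and 3.02 with plumbagin, against 3.21 and 3.18 in controls, a difference of -0.15 ± 0.08. Neither gene had overlapping groups, and at such levels the values are mostly background signal, so no change in expression can be read from them. Among the bright forms Cox6a1 read 11.80 and 11.96 with plumbagin, against 11.85 and 11.98 in controls, and Cox7a2 read 11.33 and 11.31, against 11.36 and 11.24, both with overlap.

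Of the remaining paired genes, Cox6b1 read 10.95 and 10.86 with plumbagin, against 10.95 and 10.83 in controls. Cox8a read 10.48 and 10.71 with plumbagin, against 10.45 and 10.63 in controls. Cox7a2l, now known as an assembly factor for supercomplexes of complexes III and IV, read 9.13 and 9.64 with plumbagin, against 9.42 and 9.54 in controls, with its lowest and highest values both on plumbagin arrays. Cox4i2 read 5.10 and 5.00 with plumbagin, against 5.09 and 4.94 in controls, and Cox7a1 read 2.87 and 2.75, against 2.89 and 2.81.

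**Figure D2:**
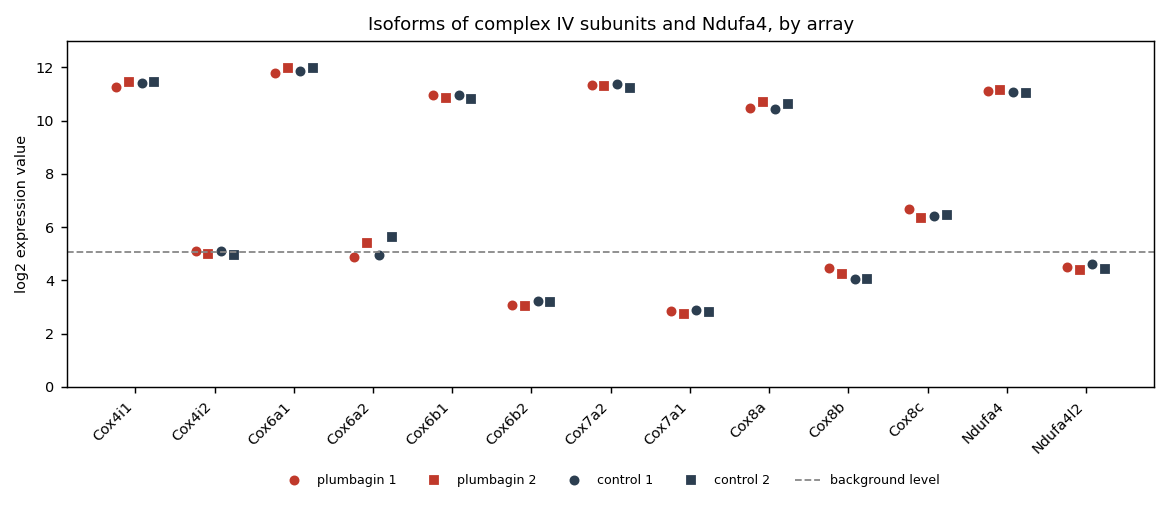
Log2 expression value (y axis) of the paired complex IV isoforms, and of Ndufa4 and Ndufa4l2, on each array, with plumbagin 1 and 2 drawn left of control 1 and 2 for each gene (x axis) and a dashed line at the background level of 5.05. The widely expressed forms lie above the line on all 4 arrays, Cox4i2, Cox6b2, Cox7a1, Cox8b and Ndufa4l2 have means below it, and plumbagin and control points of each gene lie close together.

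ATP synthase has a catalytic head in the matrix, a membrane rotor and a stalk. Its catalytic subunit Atp5b read 11.43 and 11.46 with plumbagin, against 11.61 and 11.51 in controls, a difference of -0.12 ± 0.08 without overlap. Atp5d, a subunit of the central stalk, read 10.48 and 10.53 with plumbagin, against 10.63 and 10.57 in controls, a difference of -0.10 ± 0.08, also without overlap. The other head subunits did not follow: Atp5a1 read 10.68 and 10.52 with plumbagin, between the 10.89 and 10.38 of the controls, and Atp5c1, the rotating shaft, was level at 11.40 and 11.46 with plumbagin and 11.42 and 11.43 in controls.

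Atp5o, which joins head and peripheral stalk, read 10.92 and 10.80 with plumbagin, against 11.08 and 10.86 in controls, a difference of -0.11 ± 0.11 that was -0.0004 without control 1. Atp5mpl, a small membrane subunit, had a higher mean, at 10.18 and 10.06 with plumbagin and 10.12 and 9.99 in controls, a difference of 0.06 ± 0.10 that was -0.0012 without control 2. The groups overlapped in both. The 3 genes for the rotor ring subunit encode the same mature protein with different import sequences, and none separated the groups. Atp5g1 read 9.43 and 8.97 with plumbagin, against 9.49 and 8.98 in controls, Atp5g2 read 10.83 and 10.93, against 10.86 and 10.96, and Atp5g3 read 11.54 and 11.35, against 11.59 and 11.32. In Atp5g1 the gap between arrays of 1 group was far wider than the gap between groups.

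Across the set, control 1 held the top value in 40 of the 80 members (50%). The corresponding share was 43.3% among genes above background and 39.8% among non-members with a mean above 9. The lowest array was plumbagin 1 in 29 members and control 2 in another 29, and plumbagin 2 and control 1 in 11 each. Measured as the median deviation from a gene's own mean, the arrays lay at -0.02 (plumbagin 1), -0.01 (plumbagin 2), 0.06 (control 1) and -0.02 (control 2). Without control 1 the median difference of the members was 0.01, with complex I at 0.01, complex III at 0.0080 and ATP synthase at 0.02. Whether RNA quality had a part in this was not tested. The 3-prime minus 5-prime signal of the actin control was 0.56 and 0.52 on the plumbagin arrays, against 0.47 and 0.50 on the controls.

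**Figure D3:**
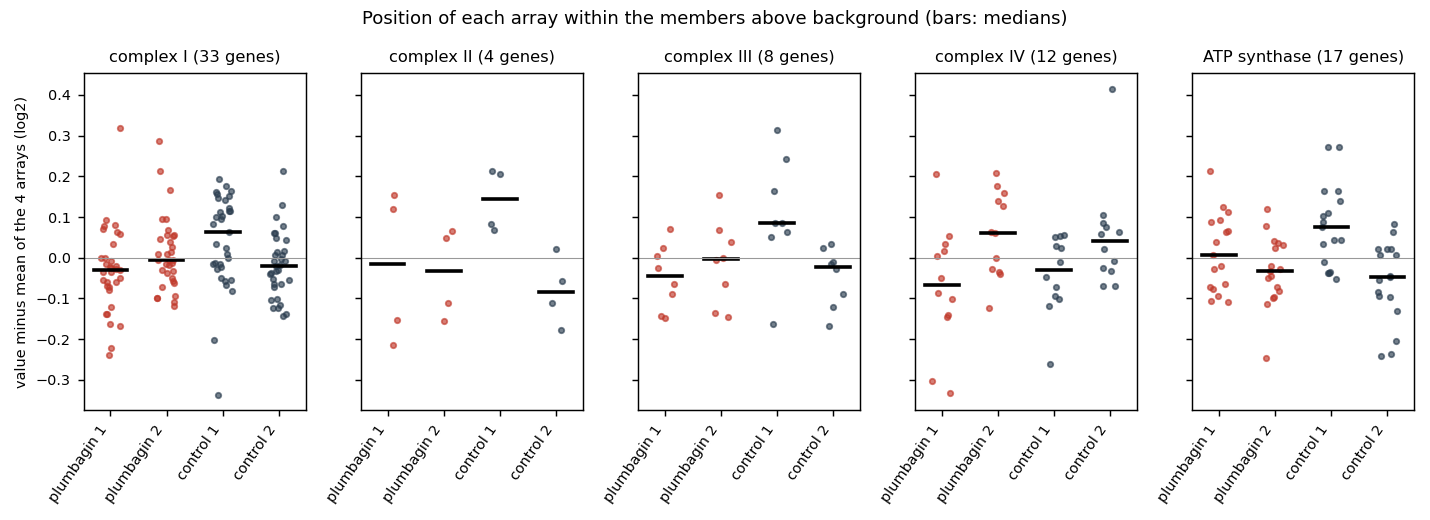
Value of each member above background minus that gene's mean over the 4 arrays (y axis, log2), by array (x axis, plumbagin 1 and 2 left of control 1 and 2), 1 panel per complex, with points for genes and bars for medians. Control 1 has the highest median in complexes I, II and III and ATP synthase, and plumbagin 2 in complex IV.

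Probe sets of the same gene mostly had differences of the same sign. The members had 138 probe sets, 38 members had more than 1, and of the 42 other probe sets above background 7, in 7 members, had a difference of the opposite sign to the chosen one. The chosen probe sets of 13 members end in x_at or s_at, and those of 28 end in a_at. Affymetrix uses these endings for probe sets that can match sequences of other genes or several transcripts of 1 gene, so values of near-identical copies are uncertain.

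The promoters of these genes are known for shared control by NRF1, by GABPA, which binds ETS-type sites, and by YY1. RefSeq windows (GRCm38.p6) from 250 bases before to 50 after the start were held for 64 of the 80 members. They were searched on both strands for GCATGCGC (the core of the NRF1 site, which often overlaps its own reverse complement), CCGGAAG (ETS) and AAGATGGC (YY1). The NRF1 core was in 10 of 64 windows (15.6%), against 2.8% of the 27025 windows of all genes. It was in 3.61% of the 17492 windows of protein-coding genes, and in 6.27% of those of non-member genes with a mean above 9. The ETS core was in 14 (21.9%), against 9.12% of all windows, 11.9% of protein-coding windows and 22% of those of the bright non-members. The YY1 core was in 9 (14.1%), against 2.88% of all windows, 3.22% of protein-coding windows and 5.41% of those of the bright non-members. Of the 9 YY1 matches, 8 lay after the start, between positions 23 and 39.

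Examples are printed of members with an NRF1 core and of muscle forms that were below background and have none of the motifs. They do not tie the motifs to brightness. Of the 60 members above background with a window, only 28 (46.7%) had any of the motifs. Windows were held for only 4 members at or below background. Each stretch ends just before the start and is written 5′ to 3′ on the gene's strand, and capitals mark NRF1 and ETS cores.
Ndufa11, chr17:56717587-56717761, plus strand: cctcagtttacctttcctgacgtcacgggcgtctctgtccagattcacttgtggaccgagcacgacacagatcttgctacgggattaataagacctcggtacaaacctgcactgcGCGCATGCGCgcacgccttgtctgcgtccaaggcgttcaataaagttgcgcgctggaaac
Sdhb, chr4:140961096-140961270, plus strand: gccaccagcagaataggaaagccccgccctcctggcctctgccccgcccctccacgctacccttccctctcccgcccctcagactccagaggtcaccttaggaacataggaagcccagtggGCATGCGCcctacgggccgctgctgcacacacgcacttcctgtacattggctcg
Cox6a1, chr5:115348959-115349133, minus strand: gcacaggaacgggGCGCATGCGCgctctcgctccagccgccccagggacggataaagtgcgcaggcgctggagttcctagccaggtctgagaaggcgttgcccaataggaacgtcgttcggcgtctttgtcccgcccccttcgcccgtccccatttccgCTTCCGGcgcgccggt
Atp5k, chr5:108434400-108434574, minus strand: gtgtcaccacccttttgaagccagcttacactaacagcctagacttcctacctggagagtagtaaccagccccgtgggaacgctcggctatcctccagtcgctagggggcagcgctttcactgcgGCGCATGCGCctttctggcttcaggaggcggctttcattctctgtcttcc
Cox7a1, chr7:30183996-30184170, plus strand: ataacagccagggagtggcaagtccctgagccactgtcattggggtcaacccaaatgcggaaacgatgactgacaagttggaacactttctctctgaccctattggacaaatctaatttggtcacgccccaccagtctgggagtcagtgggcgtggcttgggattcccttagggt
Cox8b, chr7:140900447-140900621, minus strand: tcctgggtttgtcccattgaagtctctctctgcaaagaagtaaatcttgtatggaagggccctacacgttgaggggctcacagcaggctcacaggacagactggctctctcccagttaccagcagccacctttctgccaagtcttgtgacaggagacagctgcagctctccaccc

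In Ndufa11, Cox6a1 and Atp5k the capitals GCGCATGCGC hold the core on both strands, Sdhb holds it once, and Cox6a1 also has an ETS core (CTTCCGG, on the other strand). Sdhb and Atp5k have an ETS core too, at positions 7 and 13 after the start, outside the printed stretches. Ndufa11 read 9.81 and 9.77 with plumbagin, against 9.97 and 9.78 in controls, and Atp5k read 9.76 and 9.56, against 9.80 and 9.43. The differences of members with and without the motifs lay close together. The median difference was -0.04 for the 10 with the NRF1 core (2 higher, 8 lower), 0.0040 for the 14 with the ETS core (8 higher, 6 lower), -0.03 for the 9 with the YY1 core (4 higher, 5 lower) and -0.03 for the 36 with none (12 higher, 24 lower). A match describes these letters alone.

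The regulators of these genes, apart from Yy1 (mean 9.89), were dimmer than most members, and no regulator passed the test either. Of 9 measured nuclear regulators 6 had higher and 3 lower means, with a median of 0.08. That median was -0.0020 without control 1, -0.012 without control 2 and -0.012 with all probe sets of a gene averaged. Under cyclic loess it was 0.14. Pprc1, a coactivator related to PGC-1alpha, had the lowest difference among the lists, -0.43 ± 0.17, from 6.64 and 7.05 with plumbagin, against 7.35 and 7.20 in controls. Ppargc1b, PGC-1beta, read 6.73 and 6.52 with plumbagin, against 6.497 and 6.41 in controls (0.18 ± 0.11). Both genes had groups that did not overlap, in opposite directions.

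Genes that keep and transcribe mitochondrial DNA had lower means in 7 of 9, with a median of -0.10. That median was -0.039 without control 1, -0.049 without plumbagin 1, -0.040 under cyclic loess and -0.031 with every probe set taken on its own. It was -0.14 without plumbagin 2 and -0.16 without control 2. Polrmt, the mitochondrial RNA polymerase, read 7.20 and 7.12 with plumbagin, against 7.49 and 7.39 in controls, a difference of -0.28 ± 0.09 (limma unadjusted p = 0.0323, adjusted p = 1). Tfb1m, which methylates mitochondrial ribosomal RNA, read 6.87 and 7.12 with plumbagin, against 7.26 and 7.25 in controls (-0.26 ± 0.11). All genes with a mean between 6 and 9, the brightness of most of these, had a median of -0.07, and 68.6% of them had lower means.

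Assembly factors, which build the complexes without being part of them, also had lower means more often than higher ones. So did all genes with a mean between 6 and 9, the brightness of most of these (68.6% lower). The shares for the factors ran from 61.1% lower (complex IV) to 85.7% (complex I). For complex I 12 of 14 were lower, with a median of -0.15. That median was -0.046 without plumbagin 1, -0.055 without control 1 and -0.089 under cyclic loess. It was -0.21 without plumbagin 2 and also without control 2. Foxred1 read 6.27 and 6.26 with plumbagin, against 6.64 and 6.38 in controls (-0.24 ± 0.12), and Ndufaf1 read 6.63 and 6.94, against 6.96 and 6.999 (-0.20 ± 0.13). Both separated the groups. Both plumbagin values lay below both controls in 21.4% of the 14 factors, against 20% of genes with a mean between 6 and 9. For complex II 3 of 4 were lower, with a median of -0.10. It was -0.033 both without plumbagin 1 and under cyclic loess, and -0.17 without plumbagin 2. Among the lower genes were Sdhaf1 at -0.15 ± 0.08 and Sdhaf2, which helps attach the flavin to Sdha, at -0.12 ± 0.10. For complex III 4 of 5 were lower (median -0.07, or 0.027 without plumbagin 1 and -0.31 without plumbagin 2). They included Bcs1l, which inserts the Rieske protein, at -0.20 ± 0.13, and Ttc19 at -0.16 ± 0.22, which was 0.15 without plumbagin 1.

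For complex IV 11 of 18 assembly factors were lower and 7 higher, with a median of -0.04. It was 0.040 without plumbagin 1, 0.0088 under cyclic loess and -0.16 without plumbagin 2. Cox10, which makes haem O, read 6.82 and 7.22 with plumbagin, against 7.28 and 7.29 in controls (-0.27 ± 0.16), and Coa6, a copper-delivery factor, read 7.83 and 7.84, against 7.59 and 7.74 (0.17 ± 0.09). The Coa6 difference was -0.01 when all its probe sets were averaged. For ATP synthase 3 of 4 assembly factors and inhibitor were lower, with a median of -0.16. It was -0.049 without plumbagin 1, -0.076 without control 1 and -0.037 with every probe set on its own. Without plumbagin 2 it was -0.24, and without control 2 -0.21. Among the lower genes were Tmem70, which serves the rotor ring, at -0.15 ± 0.10 and Atpaf1 at -0.16 ± 0.11. No gene of any assembly list was called by limma, and none had an unadjusted p under 0.05.

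Genes for the mobile carriers and for other routes into the chain completed the lists. All 9 measured genes for cytochrome c and ubiquinone synthesis had lower means, against 68.6% of all genes with a mean between 6 and 9. The median of these 9 genes was -0.10, and -0.0020 without control 1, -0.12 without plumbagin 2 and -0.14 without control 2. In 2 of them both plumbagin values lay below both controls, against 15.2% of all genes and 20% of those with a mean between 6 and 9. Coq6, a ubiquinone hydroxylase, differed by -0.19 ± 0.11 and Coq8b by -0.22 ± 0.16. Of the 4 genes for other electron entry 2 were higher and 2 lower. Dhodh, which makes pyrimidines and reduces ubiquinone, read 5.84 and 6.01 with plumbagin, against 6.27 and 6.14 in controls (-0.27 ± 0.11), and Etfdh, which passes on electrons from fatty acid oxidation, differed by -0.12 ± 0.13, or 0.02 without control 1. Among 11 tricarboxylic acid cycle genes the means of 3 were higher and those of 8 lower, led by Dlst at -0.22 ± 0.10 and Sucla2 at 0.14 ± 0.10. Their median was -0.04, or 0.040 without control 1 and -0.15 without control 2. No gene of these lists was called by limma either, and Polrmt was the only gene of all the mitochondrial lists with an unadjusted p under 0.05.

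**Figure D4:**
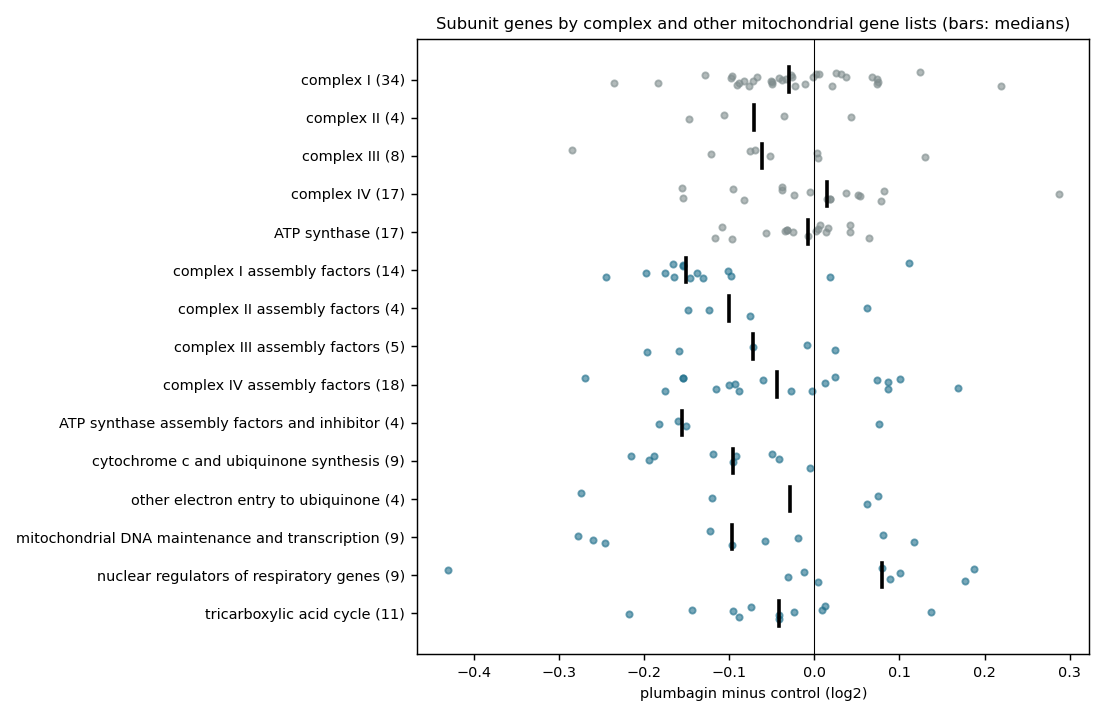
Difference of each gene, plumbagin minus control (x axis, log2), for the subunit genes by complex and for the other mitochondrial lists (rows, number of genes in brackets), with points for genes and bars for medians. The subunit medians lie between -0.07 and 0.02, and the medians of the dimmer assembly lists between -0.16 and -0.04.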

How the data were processed

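Per the labels' protocols and the series' design text, total RNA was amplified by in vitro transcription from the 3-prime end, biotin labelled and hybridised to Affymetrix mouse array strips. The authors deposited log2 values for each probe set on each array. The submitters' processing notes name Expression Console, Transcriptome Analysis Console and the RMA method; their versions are not given in the sources used here. This method makes the distributions of arrays alike, so a shift of most genes would be removed, and it compresses weak signals. The number of arrays limits the precision.

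Of 45141 probe sets 104 were controls. The platform annotation listed 29449, of which 28898 had 1 symbol and 551 several, and symbols were updated through a RefSeq table (GRCm38.p6). Groups came from the sample titles. Differences were fitted with lmFit and eBayes of limma 3.58.1 (R 4.3.3), two-sided, without covariates or a filter on dim genes, and the script was tested on simulated data. Members, lists, tests and the rule for named genes (the smallest p-values in each complex and list, core subunits and isoforms) were chosen with earlier results of these data known. Alternatives covered the probe set per gene, dim filters, normalisation, eBayes settings, a block for the replicate number, and omission of single arrays.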

Additional observations from a re-analysis of the deposited data

How the results depend on the processing

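No subunit gene and no gene of the whole table was called by limma under any of the 14 alternatives, where the count at an unadjusted p under 0.05 ranged from 24 to 973 over all genes and from 0 to 3 among the members. With the replicate number as a block (replicate block) 0 members were called, as without it, and the unadjusted count was 1 member and 434 genes. The labels tie same-numbered samples by nothing but the number. The gaps plumbagin 1 minus plumbagin 2 and control 1 minus control 2 correlated across the 74 members above background (Pearson r = 0.71, Spearman rho = 0.67, and r = 0.62 over all 8637 such genes), a description across genes that share arrays. The differences plumbagin 1 minus control 1 and plumbagin 2 minus control 2 hardly correlated (Pearson r = 0.08 over the 74 members and 0.09 over the 8637 genes).

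The median difference over the 80 members was 0.016 under cyclic loess and ranged from -0.067 to 0.015 when each array was left out. Leaving out arrays gave -0.18 to 0.059 for complex II, -0.10 to 0.0080 for complex III, -0.032 to 0.017 for complex IV and -0.086 to 0.016 for ATP synthase. The complex IV median was 0.026 with all probe sets of a gene averaged, -0.0051 with every probe set on its own, 0.0051 under both filters on dim genes, -0.0035 with arrays centred on their medians and 0.034 under cyclic loess. The cause was not tested. Single genes whose sign turned when an array was left out ranged from -0.090 to 0.18 (Sdhd), -0.23 to 0.16 (Sdhc, and 0.016 under cyclic loess), -0.30 to 0.060 (Cyc1), -0.19 to 0.020 (Cox4i1), -0.0097 to 0.17 (Cox7c), -0.0012 to 0.13 (Atp5mpl), -0.46 to 0.15 (Ttc19) and -0.26 to 0.015 (Etfdh). Coa6 was -0.011 with probe sets averaged. The other genes given with a standard error kept their direction under the alternatives run, which were not recorded for genes given by array values alone. Of 40 genes given with a standard error 35 moved by over 1.5 times or turned when an array was left out. With 2 arrays a group, a lone array is assumed to vary like the other group, and signals near the background level of 5.05 give no order.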
